A study of Mus musculus with 26 samples.

Results

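The genes described here are 10 protein-coding genes of the mouse mitochondrial chromosome, namely mt-Nd1, mt-Nd2, mt-Nd4, mt-Nd5, mt-Nd6, mt-Cytb, mt-Co1, mt-Co2, mt-Co3 and mt-Atp6. They were taken by symbol from both deposited expression tables, which list 53465 genes for regenerating muscle and 55487 genes for cultured cells. All 10 were found in both tables, among 37 genes of the mitochondrial chromosome. The study followed Mettl3, which encodes the enzyme that writes the N6-methyladenosine mark on mRNA, in regenerating muscle and in a muscle cell line. The muscle libraries come from the tibialis anterior (TA) of male C57BL/6 J mice, which the methods give as 6 weeks old at injection. The muscle was collected at 5 times, days 0, 1, 3, 5 and 10, around an injury with cardiotoxin (CTX), with 2 libraries a day. CTX comes from snake venom and lyses muscle fibres. Whether day 0 is untouched muscle or muscle given saline is not settled by the sources used here. The cell libraries come from C2C12, an established mouse myoblast line, as control cells and as Cas9M3 cells, each in growth medium (GM) and after 3 days in differentiation medium (DM3), with 2 libraries a group. Cas9M3 cells are a puromycin-selected stable line that carries a lentiviral dCas9-KRAB repressor with guides to the Mettl3 promoter, so Mettl3 is silenced and not deleted. Whether the line is 1 clone is not said. The labels do not say whether the 2 libraries of a group come from separate animals or cultures, and the methods speak of independent biological samples only in general, so each p-value measures only the spread between these libraries, which may in part be technical.

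Mitochondrial DNA is a small circular genome present in many copies per cell. Its protein-coding genes all encode core subunits of the oxidative phosphorylation complexes, which are completed by subunits that the nucleus encodes. Each strand is transcribed as a long precursor that is cut at the tRNAs between the genes, and most of the mRNAs are then polyadenylated. Muscle fibres are rich in mitochondria, and fibres destroyed by toxin are cleared and rebuilt from satellite cells.

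The genes were read on the GRCm38 build, with sequences from GENCODE M21 transcripts. Those of complex I, NADH dehydrogenase, are mt-Nd1 (ENSMUSG00000064341, chrM:2751-3707), mt-Nd2 (ENSMUSG00000064345, chrM:3914-4951), mt-Nd4 (ENSMUSG00000064363, chrM:10167-11544), mt-Nd5 (ENSMUSG00000064367, chrM:11742-13565) and mt-Nd6 (ENSMUSG00000064368, chrM:13552-14070). mt-Cytb (ENSMUSG00000064370, chrM:14145-15288) encodes cytochrome b of complex III. mt-Co1 (ENSMUSG00000064351, chrM:5328-6872), mt-Co2 (ENSMUSG00000064354, chrM:7013-7696) and mt-Co3 (ENSMUSG00000064358, chrM:8607-9390) encode the catalytic core of complex IV, cytochrome c oxidase. mt-Atp6 (ENSMUSG00000064357, chrM:7927-8607) encodes a membrane subunit of ATP synthase, complex V. mt-Nd6 is the sole gene of the 10 annotated on the minus strand, and each gene is a single exon.

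The 3′ ends of mt-Nd5 and mt-Nd6 face each other and share 14 bases, shown because the ratio of these neighbours is one of the results below. Both are written 5′ to 3′ on their own strand, with the shared bases in capitals:
mt-Nd5: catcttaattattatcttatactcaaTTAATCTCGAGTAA
mt-Nd6: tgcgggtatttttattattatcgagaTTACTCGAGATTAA

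The ends of the transcripts differ in their stop codons, and are shown because some genes lack a whole one. mt-Nd4, mt-Cytb and mt-Co3 end in a lone T that the added tail completes to a stop codon, whereas mt-Co1 carries a whole one. mt-Nd1 is annotated with a whole TAG, but its last 2 bases are shared with the tRNA gene mt-Ti. Whether the cut mRNA keeps them is not shown here. The last bases are shown with the stop codon, or what the genome holds of it, in capitals:
mt-Nd4: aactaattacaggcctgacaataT
mt-Cytb: acaaaatactaaaattatatccaT
mt-Co3: tctccatttattgatgaggatctT
mt-Co1: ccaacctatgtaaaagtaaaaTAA
mt-Nd1: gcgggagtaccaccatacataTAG

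A stretch of mitochondrial DNA has also been copied into chromosome 1, and this decides how far some of the members can be told from a nuclear gene. The annotation lists 7 such genes at chr1:24611535-24616197 on the minus strand, which are 98.8% to 100% identical to the mitochondrial sequence. Gm28661 copies mt-Co2 with no mismatch, and Gm29216 copies the end of mt-Co1 with 6 mismatches, all near its start. The first 48 bases of each copy are shown under the matching bases of the member, with bases that differ in capitals:
mt-Co2: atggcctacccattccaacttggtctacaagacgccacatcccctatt
Gm28661: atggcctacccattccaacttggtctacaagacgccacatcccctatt
mt-Co1: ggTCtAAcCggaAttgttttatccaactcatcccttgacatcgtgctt
Gm29216: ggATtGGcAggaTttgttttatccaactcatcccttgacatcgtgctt

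Of all 50-base words of a member, the share that also occurs in a nuclear gene was 100% for mt-Co2, 99.9% for mt-Co3 and 99.5% for mt-Atp6. It was 62.2% for mt-Nd4 and 51.1% for mt-Co1, 8.19% for mt-Nd2 and 7.61% for mt-Nd5, and 0% for mt-Nd1, mt-Nd6 and mt-Cytb. This count includes other chromosomes, such as Gm13340 on chromosome 2, which is 97.6% identical to mt-Co1. For words of 150 bases the share was 59.2% for mt-Nd4, 23.6% for mt-Co1 and 0% for mt-Nd2 and mt-Nd5. It stayed at 99.4% to 99.8% for mt-Co2, mt-Co3 and mt-Atp6. How reads that fit more than 1 place were counted is not given in the sources used here. The levels of mt-Co2, mt-Co3 and mt-Atp6, and part of those of mt-Nd4 and mt-Co1, are therefore uncertain against their copies, while mt-Nd1, mt-Nd6 and mt-Cytb share no such word.

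Levels are FPKM as deposited, fragments scaled to gene length and a size per library. Levels of different genes in a library can thus be compared per length. The size follows median ratios between libraries, which bring the median gene to 1 level, and not total reads. Median-ratio factors left on the deposited values were 0.9993 to 1.0009 in muscle and 0.9998 to 1.0002 in the cells. Summed reads over the deposited size ran from 0.706 to 1.35 and from 0.902 to 1.47. Fold changes rest on this scaling unless another is named. From the steps between low values, the muscle libraries held 14170000 to 18820000 reads on genes and the cell libraries 14230000 to 29560000. A member had at least 2479 reads in a muscle library and 1316 in a cell library, so counting error is small beside the spread between libraries. In the cells, Mettl3 stood at 4.68 to 5.65 FPKM in the 4 control libraries and at 0.0805 to 0.331 FPKM in the 4 Cas9M3 libraries. Some libraries stand apart. In muscle, Xist, the RNA of the inactive X chromosome of female cells, was at 5.77 FPKM or more in 5 libraries, namely replicate 2 of day 3 and those of days 0 and 10, and at 0.152 FPKM or less in the other 5, although the methods name male mice. In the cells, CT010467.1, a nuclear locus with ribosomal RNA sequence, took 0.391% to 0.515% of reads in the replicate 1 libraries and 8.03% to 27.3% in the replicate 2 libraries, so replicate number is a batch in the cell table.

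In regenerating muscle, the RNA of all 10 genes fell steeply between days 1 and 3 and had partly returned by day 10. On day 3 the mean of each gene was 13.7% to 18.4% of its day 0 mean, with a median of 15.9%. Day 1 stood at 60.6% to 87.7%, day 5 at 30.6% to 45.6% and day 10 at 44.6% to 64.6%. In each library the fragments of these 10 genes also took a share of all reads on genes, a measure that does not depend on the scaling between libraries. Day 0 had shares of 10.2% and 7.49% and day 1 of 8.49% and 8.07%, while day 3 had 2.94% and 2.33%. The share was 4.39% and 4.44% on day 5 and 5.77% and 5.06% on day 10. The day 3 libraries thus lay below all others, and those of days 5 and 10 lay between day 3 and day 1.

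**Figure D1:**
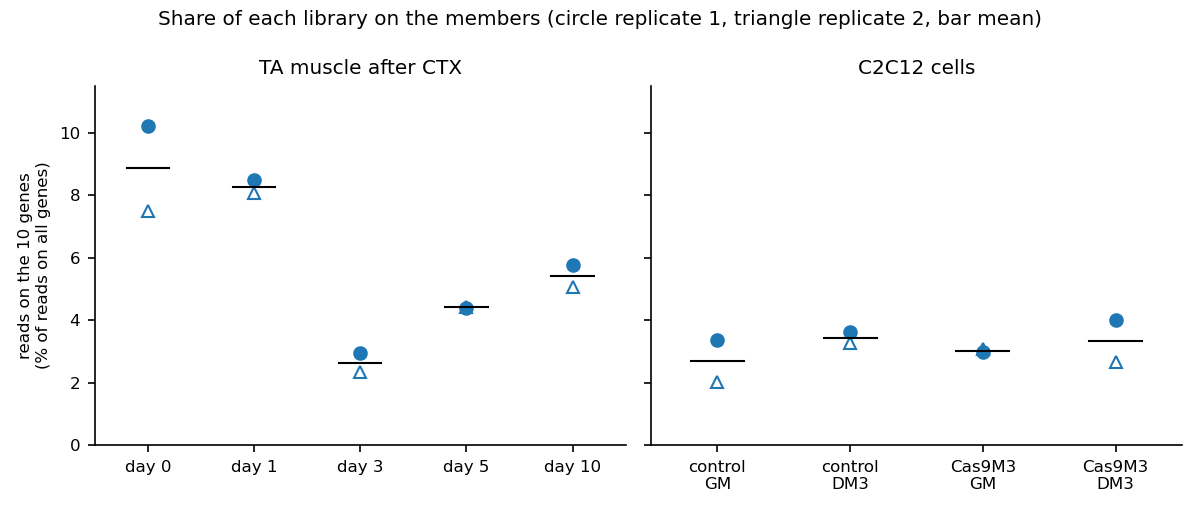
Share of the reads on all genes (%, vertical axis) that fell on the 10 mitochondrially encoded genes in each library, for TA muscle by day after CTX on the left and C2C12 cells on the right. Circles are replicate 1, triangles replicate 2 and bars the mean of the 2. The muscle share drops from 7.49% or more on days 0 and 1 to 2.94% or less on day 3, while the cell libraries stay between 2.00% and 4.01%.

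The 5 genes of complex I were first compared. mt-Nd1 stood at 18821 and 11576 FPKM on day 0, 13329 and 11657 on day 1, 3191 and 2411 on day 3, 6543 and 6708 on day 5, then 9272 and 6792 on day 10. mt-Nd2 stood at 12385 and 7405 FPKM on day 0, 8544 and 7845 on day 1, 1543 and 1168 on day 3, 3118 and 3092 on day 5, then 5195 and 3630 on day 10. In both genes the day 3 libraries were the lowest, replicate 1 of day 0 was the highest, and day 1 lay within the range of day 0. mt-Nd4 was at 7252 and 4600 FPKM on day 0, 4649 and 4650 on day 1, 1008 and 798.5 on day 3, 2106 and 1852 on day 5, then 3626 and 2551 on day 10. mt-Nd5, the longest of the 10 genes, was at 6292 and 3913 FPKM on day 0, 3344 and 4116 on day 1, 879.6 and 693.5 on day 3, 2218 and 2440 on day 5, then 3533 and 2676 on day 10. Day 3 was again the lowest, and the libraries of days 1 and 10 overlapped for mt-Nd5 but not for mt-Nd4. mt-Nd6, the minus-strand gene, was at 10696 and 6302 FPKM on day 0, 6005 and 6618 on day 1, 1564 and 1222 on day 3, 3849 and 3847 on day 5, then 6101 and 4881 on day 10. Per length it stood above mt-Nd4 and mt-Nd5 in each of the 10 muscle libraries.

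mt-Cytb, the sole complex III subunit encoded in mitochondria, stood at 23752 and 14825 FPKM on day 0, 15010 and 15059 on day 1, 3765 and 2991 on day 3, 7646 and 7300 on day 5, then 13274 and 9985 on day 10. mt-Co1, the heme-bearing catalytic subunit of cytochrome c oxidase, stood at 31255 and 23066 FPKM on day 0, 20125 and 19899 on day 1, 5185 and 3935 on day 3, 9511 and 9161 on day 5, then 17547 and 13519 on day 10. These were the most abundant of the 10 genes per length, and even on day 3 mt-Co1 was among the 8 highest genes of the whole library. mt-Co2, which takes electrons from cytochrome c, was far lower, at 2694 and 1354 FPKM on day 0, 1399 and 1055 on day 1, 369.4 and 299.3 on day 3, 817.1 and 821.1 on day 5, then 1200 and 982.7 on day 10. mt-Co3 was at 1859 and 1095 FPKM on day 0, 1127 and 974.7 on day 1, 230.6 and 183.2 on day 3, 458.5 and 444.5 on day 5, then 800.0 and 653.5 on day 10. The day 3 libraries were again below all others. mt-Atp6 was at 1502 and 1102 FPKM on day 0, 939.0 and 1344 on day 1, 217.3 and 179.9 on day 3, 539.1 and 428.4 on day 5, then 905.4 and 563.3 on day 10. For mt-Atp6 the day 1 libraries lay on either side of the lower day 0 library.

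**Figure D2:**
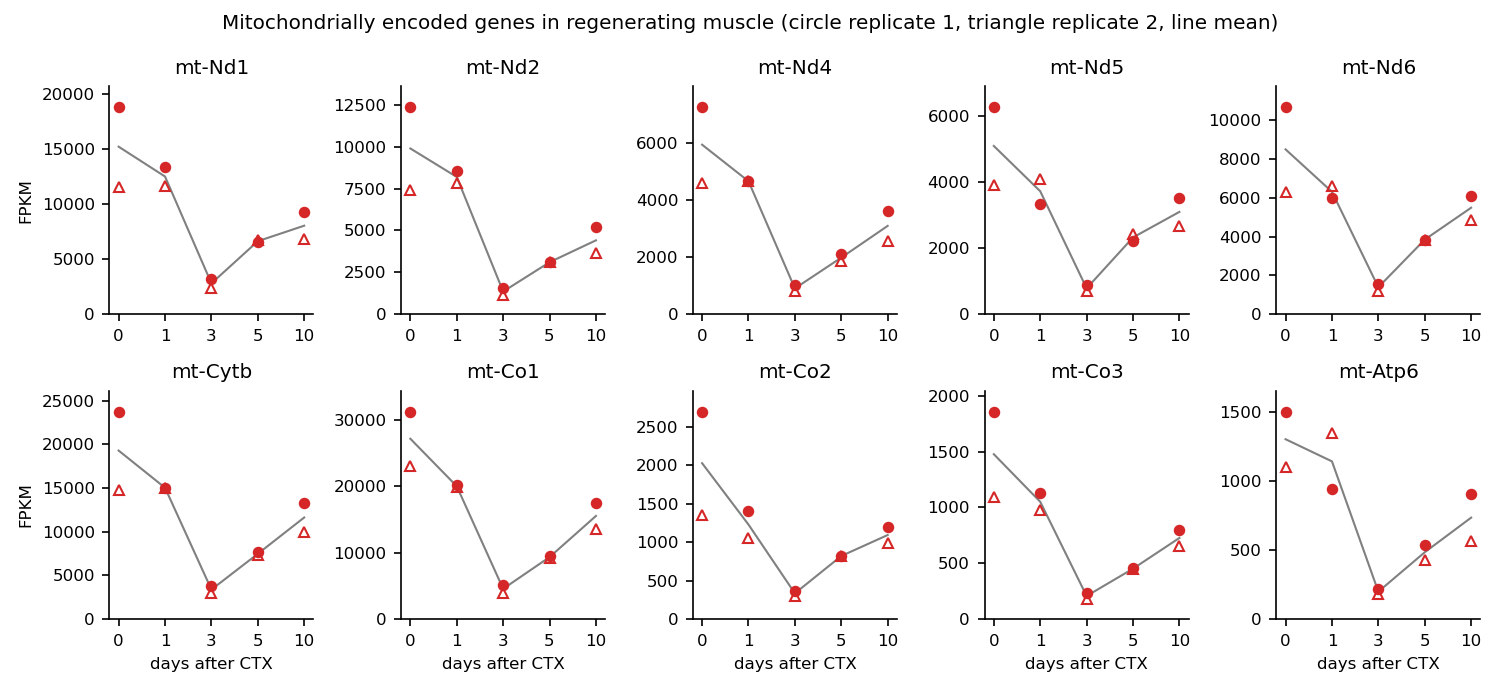
FPKM (vertical axis, from 0, its own scale in each panel) of each of the 10 genes in TA muscle by day after CTX, with days evenly spaced on the horizontal axis. Circles are replicate 1, triangles replicate 2 and the line joins the means. Every gene has its lowest libraries on day 3, for example 3191 and 2411 FPKM for mt-Nd1, and stays below both day 0 libraries on day 10.

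The order of the genes changed little over regeneration. mt-Co1, mt-Cytb and mt-Nd1 took the first 3 places among the 10, in this order, in 10 of 10 muscle libraries. mt-Nd2 and mt-Nd6 traded the next places, then mt-Nd4 and mt-Nd5, and mt-Co2, mt-Co3 and mt-Atp6 held the last 3 in every library. Neighbours within these blocks changed places between libraries and are not separated by their spread. The last 3 are also the genes that share 99.5% to 100% of their 50-base words with nuclear genes. In replicate 1 of day 0, for example, Gm28661 was listed at 1835 FPKM beside 2694 for mt-Co2. How such reads were divided is not given, so the low places of these 3 genes are uncertain. For a gene, the highest library was 7.81 to 10.6 times the lowest. Over the 10 muscle libraries, the log2 levels of pairs of these genes had Pearson correlations of 0.936, for mt-Co2 with mt-Atp6, to 0.998, with a median of 0.980. The libraries share the day of regeneration and their scaling, so these values are a description.

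Compared with day 0, each of the 10 genes was lower on day 3 by limma, where a call needs an adjusted p of 0.05 or less after Benjamini-Hochberg adjustment over all genes tested. Of all 16753 genes tested, 24.3% were called lower in this comparison. The log2 fold changes ran from -2.83 for mt-Nd2 (standard error 0.32, adjusted p = 5.84e-04) to -2.41 for mt-Nd1 (standard error 0.34, adjusted p = 0.00118). mt-Co3 had the smallest adjusted p (log2 fold change -2.79, standard error 0.27, adjusted p = 3.85e-04). The groups of both days did not overlap for any of the 10, and 39.1% of all genes tested were lower without overlap. The median over the 10 genes was -2.62, beside a median of 0.01 over all genes. When libraries were scaled to all reads on genes, the median of all genes moved to 0.82 and that of the 10 genes to -1.79, a gap of -2.61, and the 10 calls remained. This scaling also changed the balance of all calls, from 50.2% higher to 86.2% higher. Quantile normalization, which forces the same distribution on each library, gave a median of -1.03.

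Compared with day 1, the 10 genes were also lower on day 3 (limma). Their log2 fold changes ran from -2.61 for mt-Nd2 to -1.87 for mt-Co2, with adjusted p between 0.00249 and 0.00675, where 16.6% of all genes were called lower. Between days 1 and 0, by contrast, 0 of the 10 genes passed the test, with 3.53% of all genes called higher and 2.47% lower. Log2 fold changes lay between -0.65 for mt-Co2 (standard error 0.33, adjusted p = 0.249) and -0.20 for mt-Atp6 (standard error 0.30, adjusted p = 0.718), and 0 of 10 had an unadjusted p under 0.05 in limma. The sign was the opposite for 3 of the 10 with scaling to all reads on genes and for 7 with quantile normalization. The 95% intervals over the 10 genes reached from -1.41 to 0.54, so a fall of the size seen on day 3 lay outside them. These comparisons share the libraries of days 0, 1 and 3 and are not independent.

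On day 5 each of the 10 genes was lower than on day 0 (limma), and 12.5% of all genes were called lower. The log2 fold changes ran from -1.66 for mt-Co3 (standard error 0.27, adjusted p = 0.0124) to -1.09 for mt-Nd5 and mt-Nd6, and mt-Nd1 came nearest the threshold (adjusted p = 0.0420). Both day 0 libraries express Xist and neither day 5 library does, while day 3 alone holds both kinds. A term for Xist is thus set by the day 3 libraries and can hardly be separated from this comparison. The calls also depend on few libraries. Without replicate 1 of day 0, or without either library of day 5, 0 of the 10 genes were called, 5 were called without either library of day 3, and 0 were called with a term for libraries that express Xist.

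From day 3 to day 5, 7 of the 10 genes were called higher by limma, as were 7.23% of all genes. Among these, mt-Nd5 rose by 1.57 (log2, standard error 0.30, adjusted p = 0.0174) and mt-Nd6 by 1.48 (standard error 0.31, adjusted p = 0.0237). The log2 fold changes of mt-Nd2, mt-Cytb and mt-Co1 were 1.21, 1.16 and 1.05, with adjusted p of 0.0501, 0.0609 and 0.0749. Each of the 10 genes was higher on day 5 without overlap, as were 32.2% of all genes, yet 0 were called when either library of day 3 or of day 5 was left out, or with the Xist term.

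From day 3 to day 10, the 10 genes rose (limma), where 19.1% of all genes were called higher. The log2 fold changes ran from 1.52 for mt-Nd1 (standard error 0.34, adjusted p = 0.0108) to 1.98 for mt-Nd5 (standard error 0.30, adjusted p = 0.00237) and for mt-Nd6. Day 10 was still below day 0 in level for each of the 10 genes without overlap of the libraries, as were 20.4% of all genes. None of these differences passed the adjusted test in limma, in which 0.00597% of all genes, a single gene, was called. They lay between -1.14 on the log2 scale for mt-Nd2 (standard error 0.32, adjusted p = 0.404) and -0.59 for mt-Nd6 (standard error 0.31, adjusted p = 0.558). An unadjusted p under 0.05 was found for 8 of the 10 genes, and for 10.1% of all genes. The median over the 10 genes was -0.83, beside 0.00 over all genes.

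The nuclear genes for the same complexes moved in the same direction on day 3. Of 78 tested nuclear subunits of complexes I, III, IV and V, 74 fell and 3 rose (limma), with a median log2 fold change of -1.66. Fell and rose mean called here, where 24.3% of all genes were called lower and 24.5% higher. All 37 tested subunits of complex I, all 9 of complex III and all 16 of complex V fell. In complex IV, 12 of 16 fell and 3 rose. Those that fell most are muscle isoforms of cytochrome c oxidase subunits: Cox7a1 went from a mean of 855.8 FPKM on day 0 to 102.2 on day 3, and Cox6a2 from 922.1 to 159.1. The 3 that rose were Cox6a1 and Cox8a, the isoforms most tissues use, from 32.4 to 118.5 FPKM and from 68.4 to 222.5 FPKM, and the scarce Cox6b2, from 0.106 to 0.903 FPKM.

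On day 10 neither the mitochondrial genes nor the nuclear subunits had a call against day 0. The nuclear subunits had a median log2 fold change of -0.11, with 61 of 78 lower in sign and 1 at an unadjusted p under 0.05, beside -0.83 and 10 of 10 lower in sign for the mitochondrial genes. From day 3 to day 10, 73 of the 78 nuclear subunits were called higher and 3 lower, with a median of 1.54, beside 19.1% and 18.8% of all genes. On day 1, 25 of 78 nuclear subunits were called lower than on day 0, with a median of -0.62, where 2.47% of all genes were called lower. In the same comparison 0 of the 10 mitochondrial genes were called, with a median of -0.35. Whether the 2 sets differ from each other was not tested.

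**Figure D3:**
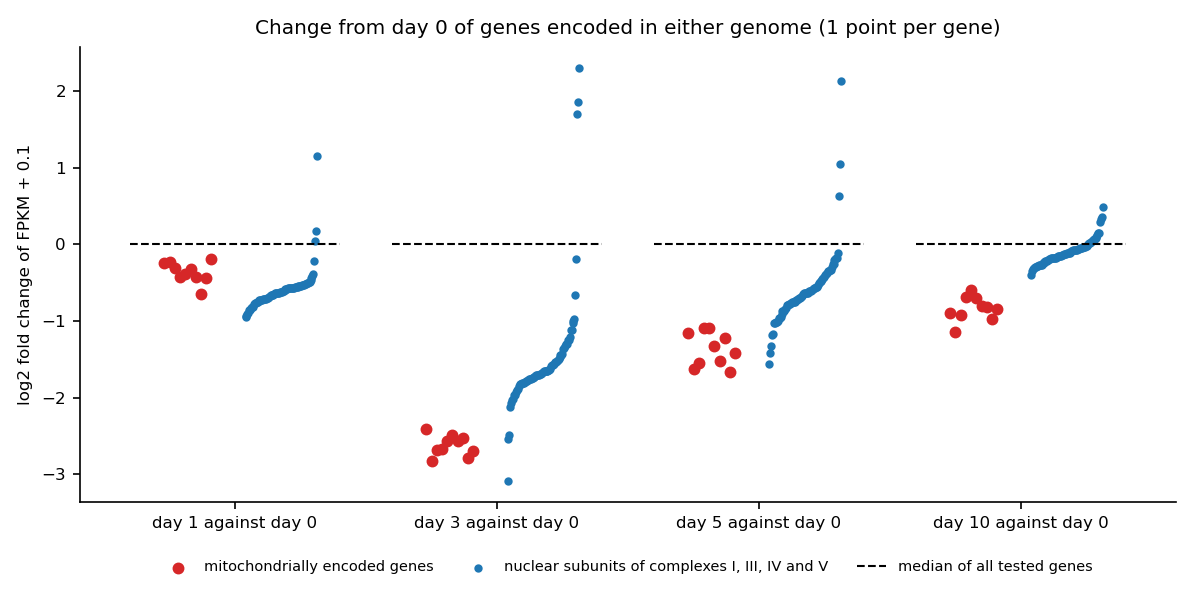
Log2 fold change of FPKM + 0.1 (vertical axis) from day 0 to days 1, 3, 5 and 10, with 1 point per gene: red for the 10 mitochondrially encoded genes and blue for the 78 tested nuclear subunits of complexes I, III, IV and V, sorted by value. The dashed line is the median of all genes. On day 3 the medians are -2.62 for the red and -1.66 for the blue points, and on day 10 they are -0.83 and -0.11.

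The ratio of the summed FPKM of the 10 genes to that of the nuclear subunits, taken within each library, was 5.25 and 4.22 on day 0 and 5.76 and 5.86 on day 1. It was 2.70 and 2.29 on day 3, 3.14 and 2.75 on day 5, then 3.15 and 2.69 on day 10. The 6 libraries of days 3 to 10 thus lay below the 4 libraries of days 0 and 1 without overlap. This difference was not tested.

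Genes that copy, transcribe and process mitochondrial DNA and RNA were counted from lists. Here too, fell and rose mean called, where 24.3% of all genes were called lower and 24.5% higher on day 3. Of 18 tested genes of mitochondrial DNA transcription and replication, 9 fell and 1 rose from day 0 to day 3 (limma), with a median of -0.47. Tfam, which packages mitochondrial DNA and starts its transcription, had a log2 value of -1.09 (standard error 0.15, adjusted p = 0.00109) and the transcription factor Tfb2m of -1.56 (standard error 0.19, adjusted p = 7.82e-04). Polrmt, the mitochondrial RNA polymerase, was not called, at -0.37 (standard error 0.21, adjusted p = 0.186). Tk2, a mitochondrial thymidine kinase, was the gene that rose, by 1.32. In the list of RNA processing and stability, 15 of 22 genes fell, with a median of -0.71. These include Lrpprc, which protects mitochondrial mRNAs, with -0.98 (standard error 0.13, adjusted p = 9.22e-04), and Grsf1, a protein of mitochondrial RNA granules, with -1.59 (standard error 0.15, adjusted p = 3.63e-04).

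Of 6 regulators of mitochondrial biogenesis, Ppargc1a fell by 1.28, Esrra by 1.60 and Gabpa by 0.65 on the log2 scale, and 3 were not called. Of 77 genes of mitochondrial ribosomal proteins, 64 fell and 0 rose, with a median of -0.83, beside 24.3% of all genes called lower. Of 10 genes of other mitochondrial proteins, 7 fell, with Vdac1, the pore of the outer membrane, at -2.25 and Cs, citrate synthase, at -1.99. On day 10, 0 genes of these lists were called against day 0, with Tfam at a log2 fold change of 0.02, Lrpprc at -0.04 and Ppargc1a at -0.11.

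The mitochondrial chromosome also holds other mRNA genes, the ribosomal RNA genes and 22 tRNA genes, of which 9 were listed at 0 in every muscle library. Against day 0, mt-Nd3, mt-Nd4l, mt-Atp8 and the ribosomal RNA genes mt-Rnr1 and mt-Rnr2 all fell on day 3, with log2 fold changes from -3.47 for mt-Nd4l to -2.16 for mt-Atp8, and 5 of 5 rose again from day 3 to day 10. mt-Atp8 was listed at 2.98 to 39.3 FPKM in muscle and shares 43 bases with mt-Atp6, so its reads and those of mt-Atp6 cannot be told apart there. The 7 nuclear copies on chromosome 1 fell on day 3 too, by log2 fold changes of -3.27 to -2.28. Gm28661, the exact copy of mt-Co2, stood at 1835 and 997.2 FPKM on day 0 and at 357.5 and 216.5 on day 3. The genes outside the mitochondrial chromosome most like the mean log2 level of the 10 over the 10 muscle libraries were 3 of these copies, Gm10925, Gm28437 and Gm28439, each with a Pearson correlation of 0.994. These 3 match the mitochondrial sequence with 0 mismatches. Reads listed on a copy cannot be told from those of a member where the sequences match. The fall of the copies and this likeness are therefore not results of separate genes. When the reads of the copies were added to the matching members, the number of members called in each comparison did not change.

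Markers of other cells moved with regeneration. The summed FPKM of 6 muscle fibre genes (Ckm, Acta1, Myh4, Myh1, Tnnt3 and Mylpf) was 49901 to 52377 on day 0, 39374 to 43589 on day 1, 14042 to 16103 on day 3, 42836 to 44088 on day 5 and 51512 to 64675 on day 10. That of 5 macrophage genes was 17.0 to 32.7 on day 0, 509 to 539 on day 3 and 31.8 to 92.0 on day 10, and that of 4 myogenic progenitor genes was 23.5 to 28.8 on day 0 and 317 to 333 on day 3. The 3 fibroblast genes summed to 32.5 to 79.5 on day 0, 379 to 404 on day 3 and 379 to 437 on day 5. From day 0 to day 3, 4 neutrophil genes went from 1.58 to 5.11 to a range of 7.17 to 8.26, 3 endothelial genes from 44.5 to 65.3 to a range of 26.8 to 34.4, and 3 erythroid genes from 184 to 292 to a range of 35.5 to 115. In bulk tissue, fewer cells of a type and less RNA per cell cannot be told apart, and the part of this mixture in the fall of the mitochondrial RNAs was not tested. Against the muscle fibre markers in the same library, the summed FPKM of the 10 genes was 2.22 and 1.51 times as high on day 0, 1.89 and 1.68 on day 1, 1.11 and 0.989 on day 3, 0.859 and 0.819 on day 5, then 0.950 and 0.898 on day 10. This ratio was therefore lower in each library of days 3, 5 and 10 than in those of days 0 and 1.

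In C2C12 cells the highest library of a gene was 1.41 times, for mt-Cytb, to 5.03 times, for mt-Co2, the lowest. For 5 of the 10 genes, replicate 2 differed from replicate 1 with the same sign in 4 of 4 groups. The share of reads on the 10 genes was 3.36% and 2.00% in control GM, 3.61% and 3.28% in control DM3, 2.99% and 3.06% in Cas9M3 GM, and 4.01% and 2.67% in Cas9M3 DM3. The library at 2.00% had 27.3% of its reads on CT010467.1, which lowers the share of all other genes. Its summed FPKM of the 10 genes was 25144, beside 24074 in replicate 1. The summed FPKM of muscle fibre markers was 643 in both control DM3 libraries, 151 and 22.1 in control GM, 102 and 5.53 in Cas9M3 GM, and 18.9 and 14.3 in Cas9M3 DM3. The Cas9M3 libraries in differentiation medium thus lacked the level of fibre markers that the control reached. The paper reports the other direction for its knockdown cells by other measures. These were more myosin heavy chain protein on blots, more fusion in stained cells and higher RNA of fusion genes by quantitative PCR.

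Values in the cells are given with replicate 1 first. Among the complex I genes, mt-Nd1 was at 4344 and 5840 FPKM in control GM, 4800 and 4898 in control DM3, 4704 and 5982 in Cas9M3 GM, and 5074 and 4126 in Cas9M3 DM3. mt-Nd2 was at 1930 and 2821 FPKM in control GM, 2376 and 2151 in control DM3, 2017 and 2929 in Cas9M3 GM, and 2441 and 1786 in Cas9M3 DM3. The groups of both genes overlapped widely. mt-Nd4 was at 1374 and 1563 FPKM in control GM, 1642 and 1393 in control DM3, 1107 and 1124 in Cas9M3 GM, and 1670 and 1209 in Cas9M3 DM3. mt-Nd5 was at 1959 and 802.5 FPKM in control GM, 2687 and 1796 in control DM3, 1551 and 1165 in Cas9M3 GM, and 2197 and 1217 in Cas9M3 DM3. In mt-Nd5 the replicate 2 library was the lower one in each of the 4 groups. mt-Nd6 was at 406.5 and 402.0 FPKM in control GM, 360.1 and 156.5 in control DM3, 344.0 and 207.7 in Cas9M3 GM, and 426.2 and 172.6 in Cas9M3 DM3, again with replicate 2 the lower in 4 of 4 groups.

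mt-Cytb was at 4219 and 3708 FPKM in control GM, 4712 and 4870 in control DM3, 3470 and 3466 in Cas9M3 GM, and 4869 and 3595 in Cas9M3 DM3. mt-Co1 was at 8645 and 7005 FPKM in control GM, 8585 and 8346 in control DM3, 8003 and 8998 in Cas9M3 GM, and 10179 and 7985 in Cas9M3 DM3. mt-Co1 was the highest of all genes in 4 of 8 cell libraries. mt-Co2 was at 381.0 and 1566 FPKM in control GM, 469.6 and 884.5 in control DM3, 311.1 and 716.5 in Cas9M3 GM, and 471.9 and 736.9 in Cas9M3 DM3. mt-Co3 was at 468.9 and 717.5 FPKM in control GM, 337.9 and 623.9 in control DM3, 184.9 and 378.1 in Cas9M3 GM, and 405.4 and 418.0 in Cas9M3 DM3. Both genes were higher in replicate 2 in 4 of 4 groups. mt-Atp6, at 346.0 and 719.4 FPKM in control GM, 604.7 and 702.5 in control DM3, 250.8 and 419.8 in Cas9M3 GM, and 452.0 and 511.6 in Cas9M3 DM3, followed the same pattern.

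**Figure D4:**
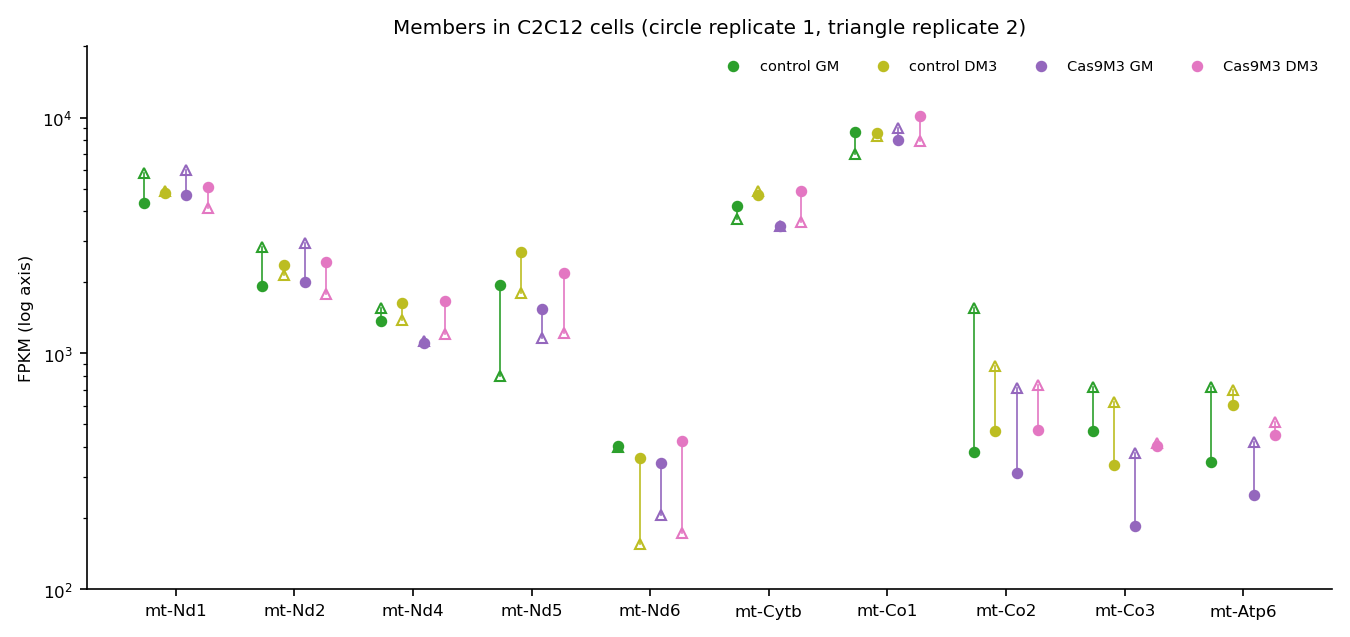
FPKM (vertical axis, log scale) of the 10 genes in the 8 C2C12 libraries, coloured by group, with circles for replicate 1 and triangles for replicate 2 of the same group joined by a line. The triangles lie above the circles in 4 of 4 groups for mt-Co2, mt-Co3 and mt-Atp6 and below them in 4 of 4 groups for mt-Nd5 and mt-Nd6.

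For 5 of the genes, replicate 2 lay on the same side of replicate 1 in 4 of 4 groups, in some groups by little. The share of all genes that did so is not given here, and a cause was not tested. Replicate 2 minus replicate 1, on the log2 scale, was 0.64 to 2.04 for mt-Co2, 0.04 to 1.03 for mt-Co3 and 0.18 to 1.06 for mt-Atp6. It was -1.29 to -0.41 for mt-Nd5 and -1.30 to -0.02 for mt-Nd6. For the other 5 genes its sign differed between groups. The pairs of genes accordingly had Pearson correlations from -0.702, for mt-Co2 with mt-Nd5, to 0.970 over the 8 cell libraries, with a median of 0.206, where replicate batch and group are both shared between points. Of 11520 genes compared, Ppp6c, Serpinb1b and Rdh10 were the most like the mean of the 10, with correlations of 0.931, 0.929 and 0.923 over the same 8 libraries. They are the top of a large search over few libraries, and their likeness was not tested. mt-Rnr1 and mt-Rnr2 stood at 229.7 and 559.4 FPKM in replicate 1 of control GM and at 4591 and 4896 in replicate 2, the library in which CT010467.1 took 27.3% of reads. The part of ribosomal RNA in these differences was not tested.

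No effect of Mettl3 silencing on the 10 genes passed the test. In GM, 0 of the 10 were called between Cas9M3 and control cells (limma), as were 0% of all 13824 genes tested, of which 1244 had an unadjusted p under 0.05. mt-Co3 had the log2 fold change farthest from 0, at -1.13 (standard error 0.47, adjusted p = 0.557), with a 95% interval from -2.28 to 0.01. At the other end was mt-Co1, at 0.12 (standard error 0.61, adjusted p = 0.963). mt-Nd4, mt-Nd6, mt-Cytb and mt-Co3 were lower in both Cas9M3 GM libraries without overlap, as were 13.8% of all genes.

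In DM3, 0 of the 10 were called between Cas9M3 and control cells (limma), beside 1.98% of all genes. The log2 fold changes ran from -0.44 for mt-Atp6 (standard error 0.44, adjusted p = 0.707) to 0.19 for mt-Nd6 (standard error 0.57, adjusted p = 0.924), and mt-Atp6 alone had no overlap between the groups, where 34.2% of all genes were lower without overlap. Between DM3 and GM, 0 were called in control cells, where 1.14% of all genes were, and the log2 fold changes ran from -0.77 for mt-Nd6 to 0.81 for mt-Nd5. In Cas9M3 cells, 0 were called beside 0.0289% of all genes, with log2 fold changes from -0.22 for mt-Nd2 to 0.64 for mt-Co3. The difference of the silencing effect between the media, taken as an interaction term, was called for 0 of the 10 genes and for 0% of all genes, of which 8.67% had an unadjusted p under 0.05. It was largest for mt-Co3, at 0.98 (standard error 0.67, adjusted p = 0.727), with a 95% interval from -0.64 to 2.59.

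In each of the 5 cell comparisons, 0 of the 10 genes had an unadjusted p under 0.05, and 0 were called with replicate number as a block. With the block, 2.31% of all genes were called higher and 1.35% lower between Cas9M3 and control in DM3, 1.87% and 1.11% between DM3 and GM in control cells, and 0.0434% and 0.0217% between DM3 and GM in Cas9M3 cells. The intervals of the GM comparison reach from -2.58 to 1.60 over the 10 genes, so a fall as large as on day 5 in muscle would lie within the intervals of some of them, and the lack of a call does not show that the levels were alike. Of the 79 tested nuclear subunits, 0 were called in any of the 5 comparisons, with medians from -0.58, between DM3 and GM in control cells, to 0.33, for the interaction. Replicate 2 of control GM enters both medians and stood apart. Its nuclear subunits summed to 10365 FPKM, beside 4173 in replicate 1 and at most 5418 in any other cell library. It also had 27.3% of its reads on CT010467.1, so these medians lean on 1 library. The lists of transcription and replication, RNA processing, biogenesis, ribosomal proteins and other mitochondrial proteins had 0 calls in the cells as well. The comparisons share control libraries.

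The level of mt-Nd6 against its neighbour mt-Nd5 lay in separate ranges in muscle and in the cells. The ratio of mt-Nd6 to mt-Nd5 FPKM, which is taken within a library, was 1.58 to 1.82 in the 10 muscle libraries and 0.0872 to 0.501 in the 8 cell libraries. mt-Nd6 made up 8.06% to 10.7% of the summed FPKM of the 10 genes in muscle and 0.606% to 1.69% in the cells. The tRNA genes were also summed by strand. The 8 tRNA genes on the strand of mt-Nd6 summed to 880 to 11451 FPKM in muscle, against at most 163 FPKM for the 14 on the other strand. The 8 were the higher set in 10 of 10 muscle libraries. In the cells they summed to 68.8 to 375 FPKM and the 14 to 217 to 1419 FPKM, and the order moved with the replicate batch: the 8 were the higher set in 3 of 4 replicate 1 libraries and in 0 of 4 replicate 2 libraries. Whether the counting used strand is not given in the sources used here, and without strand, reads of a gene and of RNA from the opposite strand cannot be told apart. The tables were also scaled separately and come from different sources of RNA, so tissue, table and library preparation cannot be told apart, and the difference was not tested.

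**Figure D5:**
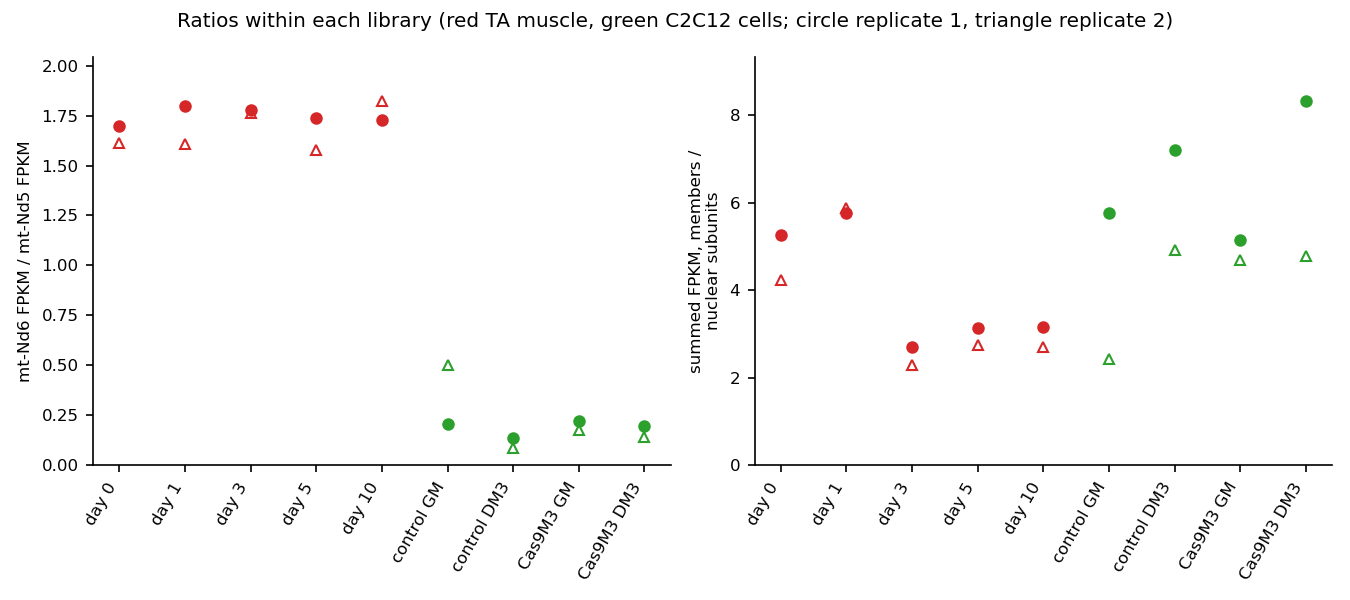
Ratios within each library for the 5 days of muscle (red) and the 4 groups of cells (green), with circles for replicate 1 and triangles for replicate 2. On the left, the ratio of mt-Nd6 to mt-Nd5 FPKM lies between 1.58 and 1.82 in muscle and at 0.501 or below in cells, and on the right, the summed FPKM of the 10 genes over that of the nuclear subunits is 4.22 or more on days 0 and 1 and 3.15 or less on days 3 to 10.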

How the data were processed

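After HISAT2 alignment (GRCm38) and featureCounts, the authors used the fpkm function of DESeq2 and deposited the resulting FPKM, with muscle and cell tables scaled separately. The strand setting and the treatment of reads with several matches are not given in the sources used here. Of the 26 samples of the series, 8 with other constructs were not analysed here. From the deposited FPKM, log2(FPKM + 0.1) was tested with limma 3.58.1 in R 4.3.3 (a single fit per table, trended variance, Benjamini-Hochberg adjustment), for the 16753 muscle and 13824 cell genes that reached 0.5 FPKM in 2 libraries or more. A call is an adjusted p of at most 0.05. The log2 scale with this pseudocount understates changes of low genes. Reads were recovered from the value of 1 read on a gene, and 97.7% to 99.2% of low values were whole within 0.1 read. In the cells, deviations of same-numbered libraries from their group means correlated by 0.278 to 0.680 in 6 of 6 pairs of groups, so replicate numbers pair the libraries. All 10 members were named in every comparison. Members and gene lists were chosen with earlier results of these data known. The test was checked on simulated data. Alternatives covered pseudocount, filter, scaling, quantile normalization, groups in the fit, replicate block, an Xist term, added reads of nuclear copies (chosen after seeing the data) and each library left out.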

Additional observations from a re-analysis of the deposited data

How the results depend on the processing

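The 10 calls of day 3 against day 0 held in 10 of 10 fits that left out a library, and 9 to 10 did for day 3 against day 1. For both comparisons 7 genes were called with no filter and 7 with only the groups compared in the fit, and for day 3 against day 1, 9 were called with quantile normalization and 9 with the Xist term. For day 5 against day 0, the number of genes called was 6 with a pseudocount of 0.01, 2 with no filter, 6 with scaling to all reads, 6 with scaling to reads outside the mitochondrial chromosome, 5 with quantile normalization, 0 with only the groups compared in the fit and 0 with the Xist term, and 0 to 10 with a library left out. For day 5 against day 3 these were 4 with a pseudocount of 0.01, 0 with no filter, 3 with each of both scalings, 3 with quantile normalization, 5 with only the groups compared and 0 with the Xist term, but 10 with a pseudocount of 1 and 10 with a filter of 1 FPKM, and 0 to 9 with a library left out. For day 10 against day 3 they were 5 with no filter, 5 with quantile normalization, 6 with only the groups compared, and 8 to 10 with a library left out. The cause was not tested. The counts of 0 for days 1 and 10 against day 0 and for the 5 cell comparisons were 0 in each alternative.

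Scaling to all reads moved the median log2 fold change of all genes by 0.55 for day 3 against day 1, 0.38 for day 5 against day 0, -0.43 for day 5 against day 3 and -0.70 for day 10 against day 3, where the gap between the 10 genes and all genes was then -2.19, -1.35, 1.24 and 1.77. The share of calls that were higher moved with it to 87.0%, 82.6%, 13.8% and 12.9%, from 46.7%, 50.8%, 57.0% and 50.5%, and for day 1 against day 0 and DM3 against GM in control cells from 58.8% and 67.1% to 87.2% and 80.2%. As a share of summed FPKM in place of reads, the 10 genes took 13.4%, 12.6%, 4.20%, 6.93% and 8.42% on days 0, 1, 3, 5 and 10, and 5.62%, 8.84%, 7.14% and 8.06% in control GM, control DM3, Cas9M3 GM and Cas9M3 DM3. The value for control GM is the mean of 8.56% in replicate 1 and 2.69% in replicate 2, the library with 27.3% of its reads on CT010467.1.

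Of the 10 genes, 3 changed sign on day 1 against day 0 with each scaling to reads, 7 with quantile normalization and up to 6 with a library left out, where none was called. In the cells, where none was called either, the scalings to reads changed the sign of 3 between DM3 and GM in control cells and of 1 for Cas9M3 against control in GM and for the interaction, quantile normalization that of 1 to 4 in each comparison, and a library left out that of up to 5. On days 3, 5 and 10 against day 0 and on day 3 against day 1, 0 changed sign in any alternative. Where a printed fold change turned, the gene was mt-Atp6 on day 1 against day 0 (0.076 and 0.067 with the scalings to all reads and to reads outside the mitochondrial chromosome, 0.30 with quantile normalization, -0.454 to 0.063 with a library left out) and, with quantile normalization, mt-Nd2, mt-Nd4 and mt-Cytb on day 5 against day 3 (-0.16, -0.14 and -0.064), mt-Nd1 and mt-Nd2 on day 10 against day 3 (-0.21 and -0.13) and mt-Nd2 between DM3 and GM in Cas9M3 cells (0.11). With a library left out, the ranges that crossed 0 were -0.027 to 0.277 for mt-Co1 and -0.46 to 0.84 for mt-Nd6 between Cas9M3 and control in GM and DM3, -0.489 to 0.050 for mt-Nd2 between DM3 and GM in Cas9M3 cells, and -1.17 to 0.12 for mt-Nd5 in the interaction. Quantile normalization brings the top of each library to the same values, where these genes stand.

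Replicate numbers of the muscle libraries did not pair them (correlations of -0.0187 to 0.211, 2 of 10 over 0.1). With replicate as a block, 9 in place of 7 genes were called on day 5 against day 3, and the block changed no other count of members called. With 2 libraries a group, small differences cannot be shown, least of all in the cells.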
